A study of Mus musculus with 3 samples.

Results

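Gjb6 encodes connexin 30 (Cx30), a gap junction protein of astrocytes, and lies on chromosome 14 beside the related connexin genes Gjb2 and Gja3. The genes described here are 10 non-connexin genes around it: Zmym2, Zmym5, Pspc1 and Mphosph8 at lower coordinates, and Cryl1, Ift88, Il17d, Xpo4, Lats2 and Sap18 at higher coordinates. They were taken by name from the 29917 genes measured, each by its transcript row with the largest total count. The rule for choosing them uses gene names and position. None of the 10 differed by 2-fold or more between any pair of libraries. Few genes did: 2.68% to 8.69% of all genes tested, depending on the pair. Gjb6 was 25.1-fold lower and Gjb2 was 2.08-fold higher in the Cx30-/- library than in C57BL6 WT. Lats2, a kinase of the Hippo pathway, was the only one of the 10 that lay above both WT libraries beyond counting error. The share of all genes that did so was not computed, and 37.1% of all genes tested were higher than both by any amount.

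Polyadenylated RNA of isolated brain vessels was sequenced in 3 libraries: Cx30-/-, C57BL6 WT and C57BL6-BALB/c WT. Each was a pool of 3 male mice aged 3 months, so a group is 1 library and there is no replicate error. Cx30 was deleted in every cell of the Cx30-/- mice. Their background is C57BL6 in the sample labels and a C57BL6 and BALB/c mixture in the study's methods, and both WT groups are therefore given throughout. The deposited counts per transcript summed to between 50375426 and 60725557 per library. Endothelial markers were high in all libraries (8 of 8 listed genes measured, Cldn5 at 25826, 12122 and 29047 normalized counts in C57BL6 WT, C57BL6-BALB/c WT and Cx30-/-). Markers of astrocytes, neurons, oligodendrocytes, microglia, mural cells, and ependyma and choroid plexus were present too. In the same order of libraries, Ttr of the ependymal and choroid plexus list reached 137638, 52930 and 71366 normalized counts. Red cell markers (3 of 3) and neutrophil markers (4 of 4) were at least 2-fold higher in Cx30-/- than in either WT library.

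Genes that sit next to each other on a chromosome can share regulatory elements, so an allele engineered at a single gene may be read together with its neighbours. Mice carrying a modified allele also keep a stretch of the donor strain's chromosome around it, and variants in that stretch can alter expression of linked genes. The 10 genes have varied functions. Lats2 phosphorylates the co-activators YAP and TAZ. Zmym2 and Zmym5 are MYM-type zinc finger proteins of the nucleus, Mphosph8 is the chromodomain subunit of the HUSH silencing complex, and Sap18 belongs to the SIN3 corepressor and to splicing-associated complexes. Pspc1 is a paraspeckle protein, Xpo4 a nuclear transport receptor, Ift88 a subunit of the particle that moves cargo along cilia, Il17d a cytokine of the interleukin-17 family and Cryl1 an enzyme of glucuronate metabolism.

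On GRCm38 (GENCODE M21), Gjb6 spans chr14:57123303-57133611 on the minus strand. On the lower side, Zmym2 (chr14:56886653-56962701, plus strand) begins 161 kb from it, measured between the nearest ends, followed by Zmym5 (56790585 to 56811716, minus) at 312 kb, Pspc1 (56720710 to 56778316, minus) at 345 kb and Mphosph8 (56668248 to 56697430, plus) at 426 kb. Gjb2 and Gja3 lie between Zmym2 and Gjb6, 18.6 and 65.2 kb from Gjb6. On the higher side, Cryl1 (57274993 to 57398529, minus) lies 141 kb away, Ift88 (57424062 to 57517936, plus) 290 kb, Il17d (57524777 to 57543166, plus) 391 kb, Xpo4 (57577521 to 57665430, minus) 444 kb, Lats2 (57689662 to 57758388, minus) 556 kb and Sap18 (57798180 to 57806638, plus) 665 kb. The counts come from exons of the annotated transcripts.

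RefSeq promoter sequences (GRCm38.p6) were found for 9 of the 10 genes, the exception being Xpo4. The 250 bases before the start site are shown for Zmym2 and Zmym5, because these neighbouring genes on opposite strands carry almost the same promoter, and for Lats2, which has the largest difference from both WT libraries. In the first 2 sequences (Zmym2, chr14:56886353-56886602, plus strand; Zmym5, chr14:56811717-56811966, minus strand) capitals mark bases without an identical partner in the alignment of the pair, 33 in each. In Lats2 (chr14:57746124-57746373, minus strand) capitals mark GC boxes, GGGCGG or its reverse complement CCGCCC.
Zmym2: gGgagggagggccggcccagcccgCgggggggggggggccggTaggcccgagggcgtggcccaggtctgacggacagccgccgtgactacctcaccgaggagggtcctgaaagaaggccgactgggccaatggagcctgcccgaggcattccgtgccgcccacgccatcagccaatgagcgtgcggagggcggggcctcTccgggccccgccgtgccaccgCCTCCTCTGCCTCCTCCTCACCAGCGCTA
Zmym5: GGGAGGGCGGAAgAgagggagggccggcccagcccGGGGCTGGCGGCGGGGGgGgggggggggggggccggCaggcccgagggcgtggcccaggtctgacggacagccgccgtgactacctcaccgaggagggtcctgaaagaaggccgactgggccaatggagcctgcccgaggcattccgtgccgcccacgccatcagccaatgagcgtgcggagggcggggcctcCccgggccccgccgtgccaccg
Lats2: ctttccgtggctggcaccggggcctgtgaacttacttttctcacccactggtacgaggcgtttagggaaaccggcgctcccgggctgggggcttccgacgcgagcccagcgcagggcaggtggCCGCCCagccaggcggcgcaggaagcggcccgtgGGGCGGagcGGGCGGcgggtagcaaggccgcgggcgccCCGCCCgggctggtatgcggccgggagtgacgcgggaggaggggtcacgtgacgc

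The Zmym2 and Zmym5 windows aligned over 221 bases, of which 217 were identical (98.2%). Of the 36 pairs among the 9 promoters, theirs was the only pair that shared a run of 20 bases. All 9 promoters had a GC content above the median of all 32851 promoter windows, from 53.2% to 77.2% (median 62.4%, against 52.4% over all windows), and all 9 had more CpG dinucleotides than the overall median (14 to 31 per window, against 6). A GC box on either strand was found in 5 of the 9 (32.7% of all windows), a CCAAT box (CCAAT or ATTGG) in 6 (33.8%), and the motif TATAAA or its complement in 0 (12.4%). GGAATG or CATTCC, the core motif of the TEAD factors that Hippo signalling controls, was found in Zmym2 and Zmym5 (12.6% of all windows) and not in Lats2. Where RefSeq lists several starts, the entry listed first was used, and these statements hold for that start only. The second windows of Zmym2, Zmym5 and Lats2 held none of these motifs. That of Lats2 had a GC content of 44.8% and 4 CpG dinucleotides, below both medians. A match to these letters describes the sequence and does not show that a factor binds there.

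Normalized counts were obtained by dividing each count by the size factor of its library. Between the highest and the lowest of the 3 libraries, the normalized count of a flanking gene differed by 0.13 (Pspc1) to 0.58 (Lats2) on the log2 scale. For Gjb6 the same range was 4.65 and for Gjb2 1.36. Each of the 10 was highest either in Cx30-/- (5 genes) or in C57BL6-BALB/c WT (5 genes), and none was lowest in Cx30-/-. Over all 14688 genes tested in both comparisons, 37.1% were higher in Cx30-/- than in both WT libraries and 36.6% were lower than in both. The lead of Cx30-/- for Il17d and Sap18 was below 0.01 on the log2 scale and turned with other size factors. The plot of counts by library shows the 10 genes in chromosomal order beside the connexins.

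**Figure D1:**
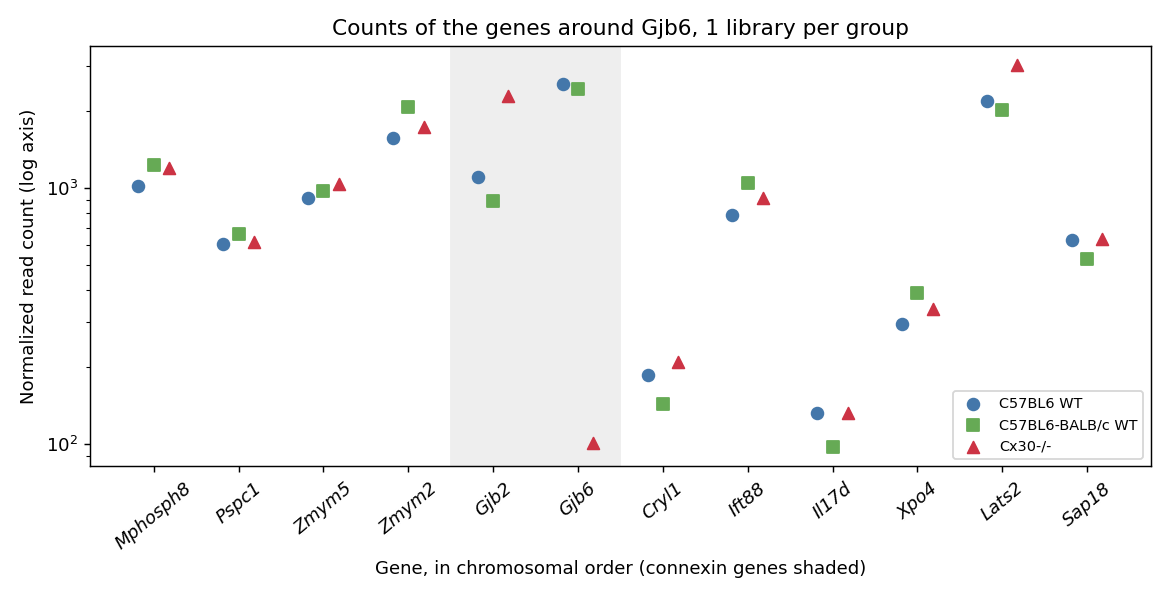
Normalized read count (log axis) of the 10 flanking genes and of Gjb2 and Gjb6 (shaded) in C57BL6 WT (circles), C57BL6-BALB/c WT (squares) and Cx30-/- (triangles) brain vessels, 1 point per library. The 3 points of a flanking gene lie within 0.58 of each other on the log2 scale, while Gjb6 drops to 101 in Cx30-/- from 2531 and 2426 in the WT libraries.

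Lats2 was counted 2510 times in C57BL6 WT, 1864 times in C57BL6-BALB/c WT and 2873 times in Cx30-/-, which gave 2192, 2013 and 3014 normalized counts. The Cx30-/- library was the high one, and the WT libraries lay close together. Relative to C57BL6 WT this was a log2 ratio of 0.46 with a 95% interval from 0.38 to 0.54 (1.38-fold), and relative to C57BL6-BALB/c WT a log2 ratio of 0.58 with an interval from 0.50 to 0.67. These intervals are exact binomial intervals of the 2 counts. They cover the sampling of reads only, not differences between mice or vessel preparations. A difference of this size was not rare among all genes: 83.1% of the genes tested differed less from C57BL6 WT and 70.8% differed less from C57BL6-BALB/c WT. The 2 shorter coding transcripts of Lats2, counted 200 and 199 times in Cx30-/-, gave log2 ratios of 0.46 and 0.48 against C57BL6 WT and of 0.43 in either case against C57BL6-BALB/c WT. Part of the Lats2 transcript (56.5% of its possible 50-base reads) is also annotated to Gm49361, a gene model that runs across Lats2 and Xpo4.

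Endothelial markers moved in the same direction as Lats2, but by other amounts. Between the WT libraries (C57BL6-BALB/c over C57BL6) Lats2 was at -0.12 and the endothelial median was -0.65. Against C57BL6 WT, Lats2 was at 0.46 and the endothelial median was 0.20. All 8 endothelial markers were higher in Cx30-/- than in both WT libraries, with median log2 ratios of 0.20 and 0.83. Their summed level was 127523 normalized counts in C57BL6 WT, 81907 in C57BL6-BALB/c WT and 148030 in Cx30-/-, with no marker at 0. Mural cell markers (6 of 6 measured, none at 0) had median log2 ratios of 0.25 and 0.22, and 2 of them were higher than in both. Red cell markers had medians of 1.28 and 2.03 (3 of 3 higher than in both, summed level 6491, 3802 and 15556 in C57BL6 WT, C57BL6-BALB/c WT and Cx30-/-) and neutrophil markers 1.58 and 2.34 (4 of 4, summed level 449, 262 and 1319). Oligodendrocyte markers had medians of -0.97 and -0.60 (4 of 5 lower in Cx30-/- than in both WT libraries), neuronal markers -0.39 and -0.84 (5 of 6, with 1 higher than in both) and astrocyte markers -0.24 and -0.18 (3 of 6, with 1 higher). Microglial markers had medians of -0.22 and 0.10 (1 of 5 lower than in both). Ependymal and choroid plexus markers had medians of 0.05 and 0.64 (3 of 6 higher than in both). Their summed level was 146138 in C57BL6 WT, 58574 in C57BL6-BALB/c WT and 80198 in Cx30-/-. The part of these cell mixtures in the Lats2 difference was not tested, and in such bulk samples more cells of a type and more RNA per cell cannot be told apart.

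Among the regulators of chromatin and transcription, Zmym2 reached 1570, 2075 and 1720 normalized counts (from here on in the order C57BL6 WT, C57BL6-BALB/c WT, Cx30-/-). The Cx30-/- library fell between the WT libraries, 0.13 above C57BL6 WT (0.03 to 0.23) and 0.27 below C57BL6-BALB/c WT on the log2 scale (log2 ratio -0.27, -0.37 to -0.17). Zmym5 was at 913, 975 and 1039 normalized counts, 0.19 above C57BL6 WT (0.06 to 0.31) and 0.09 above C57BL6-BALB/c WT (-0.04 to 0.22). Zmym2 was highest in C57BL6-BALB/c WT and Zmym5 in Cx30-/-. For Zmym5 the lead of Cx30-/- over C57BL6-BALB/c WT lay within counting error. So did its difference between the WT libraries (0.10 for C57BL6-BALB/c over C57BL6, -0.03 to 0.23). The part of their near-identical first promoters in these values was not tested. The 2 annotated transcripts have 161 positions at which a 50-base read would match both. Such reads were removed as multiple matches.

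Mphosph8 was at 1017, 1227 and 1198 normalized counts. In the row used it was higher in Cx30-/- than in C57BL6 WT (log2 ratio 0.24, 0.12 to 0.35) and could not be separated from C57BL6-BALB/c WT (-0.03, -0.15 to 0.09). The difference from C57BL6 WT depended on the row. Its other rows, annotated as processed transcripts, gave 0.04, 0.06, 0.08 and 0.22, each with an interval that included 0. All rows summed gave 0.14. Sap18 had 629, 526 and 629 normalized counts. C57BL6 WT and Cx30-/- were level (log2 ratio 0.0016, -0.16 to 0.16), and C57BL6-BALB/c WT was lower (Cx30-/- above it by 0.26, 0.08 to 0.43). Of the 50-base reads possible from the annotated Sap18 transcript, 15.8% also match other genes, mostly the copy Sap18b. The transcript used for Sap18 was covered over 78.7% to 82.8% of its bases.

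Of the genes for RNA-binding and nuclear transport proteins, Pspc1 varied least, with 602, 660 and 613 normalized counts. Cx30-/- differed from C57BL6 WT by 0.03 (-0.14 to 0.19) and from C57BL6-BALB/c WT by -0.11 (-0.27 to 0.06) on the log2 scale, so that every interval of Pspc1 included no change. Xpo4 had 293, 390 and 337 normalized counts. It lay between the WT libraries in Cx30-/-, at 0.20 above C57BL6 WT (-0.03 to 0.42) and at -0.21 against C57BL6-BALB/c WT (-0.43 to 0.01). The WT libraries themselves differed for Xpo4 (log2 ratio 0.41 of C57BL6-BALB/c over C57BL6, 0.19 to 0.63). Of its possible 50-base reads, 9.28% also match the gene model Gm17873.

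Ift88 had 784, 1042 and 915 normalized counts, again with Cx30-/- between the WT libraries. It was 0.22 above the former (0.09 to 0.36) and at -0.19 relative to the latter (-0.32 to -0.05). The row used is annotated as a retained intron form. The coding transcript of Ift88, counted 800, 859 and 795 times, gave 0.26 and -0.15. Il17d was the least counted of the 10 (151, 90 and 126 reads), with 132, 97.2 and 132 normalized counts. Cx30-/- was level with C57BL6 WT (log2 ratio 0.0036, -0.35 to 0.35) and 0.44 above C57BL6-BALB/c WT (0.04 to 0.85). Cryl1 was at 187, 144 and 210, with Cx30-/- 0.17 above C57BL6 WT (-0.12 to 0.45) and 0.55 above C57BL6-BALB/c WT (0.22 to 0.87). For Il17d and Cryl1 the C57BL6-BALB/c WT library was the low one, and the upper ends of these wide intervals reached 1.80-fold and 1.83-fold.

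Read per kilobase of the transcript used, the order of the median levels was Lats2 (422 normalized counts per kb), Mphosph8 (408), Zmym2 (371), Zmym5 (323), Pspc1 (302), Ift88 (216), Sap18 (181), Cryl1 (129), Il17d (104) and Xpo4 (71.2). From Lats2 down to Pspc1 the range over the 3 libraries of each gene overlapped that of the next, as did those of Cryl1 and Il17d and of Il17d and Xpo4. Pspc1, Ift88 and Sap18 did not overlap the gene that followed them. Gjb6 stood at 1439 and 1379 per kb in C57BL6 WT and C57BL6-BALB/c WT and at 57.3 in Cx30-/-, below the lowest flanking gene in that library. Gjb2 stood at 460, 373 and 956 per kb in C57BL6 WT, C57BL6-BALB/c WT and Cx30-/-.

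Against C57BL6 WT, 0 of the 10 genes reached a ratio of 2 either way. The ratio was read only where a library of the pair had 50 or more normalized counts, a minimum that all 10 passed. Over all 14776 genes tested in this comparison 396 did (2.68%). All 10 log2 ratios were positive, from 0.0016 to 0.46, although those of Il17d and Sap18 turned negative with other size factors (down to -0.0031). The sign was not shared by the unlisted non-connexin genes between them that passed the minimum. These were Ift88os (-0.38, -0.92 to 0.15) and Eef1akmt1 (-0.22, -0.54 to 0.09). The median of the 10 flanking genes was 0.18, against -0.0046 over all genes tested. By size, the median was also 0.18, beside 0.19 over all genes, and 5 of the 10 lay between the quartiles of all genes. The intervals of 5 genes (Lats2, Mphosph8, Ift88, Zmym5 and Zmym2) did not include a ratio of 1, and no interval reached 2-fold. The share of all genes with such intervals was not computed.

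Against C57BL6-BALB/c WT, 0 of the 10 reached a ratio of 2, beside 1294 of 14891 genes tested (8.69%). Here 5 ratios were positive (Lats2, Cryl1, Il17d, Sap18 and Zmym5) and 5 negative, with a median of 0.03 (0.0040 over all genes). The median size was 0.24, beside 0.36 over all genes, and 7 of the 10 lay between the quartiles. These 2 comparisons share the Cx30-/- library. Between the WT libraries, 0 of the 10 reached a ratio of 2, beside 508 of 14791 genes (3.43%). The median size between the WT libraries was 0.32 (0.26 over all genes). Intervals excluded a ratio of 1 for 8 genes there, and for Cx30-/- in 5 against C57BL6 WT and 6 against C57BL6-BALB/c WT. Without a share over all genes, these counts cannot be ranked.

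**Figure D2:**
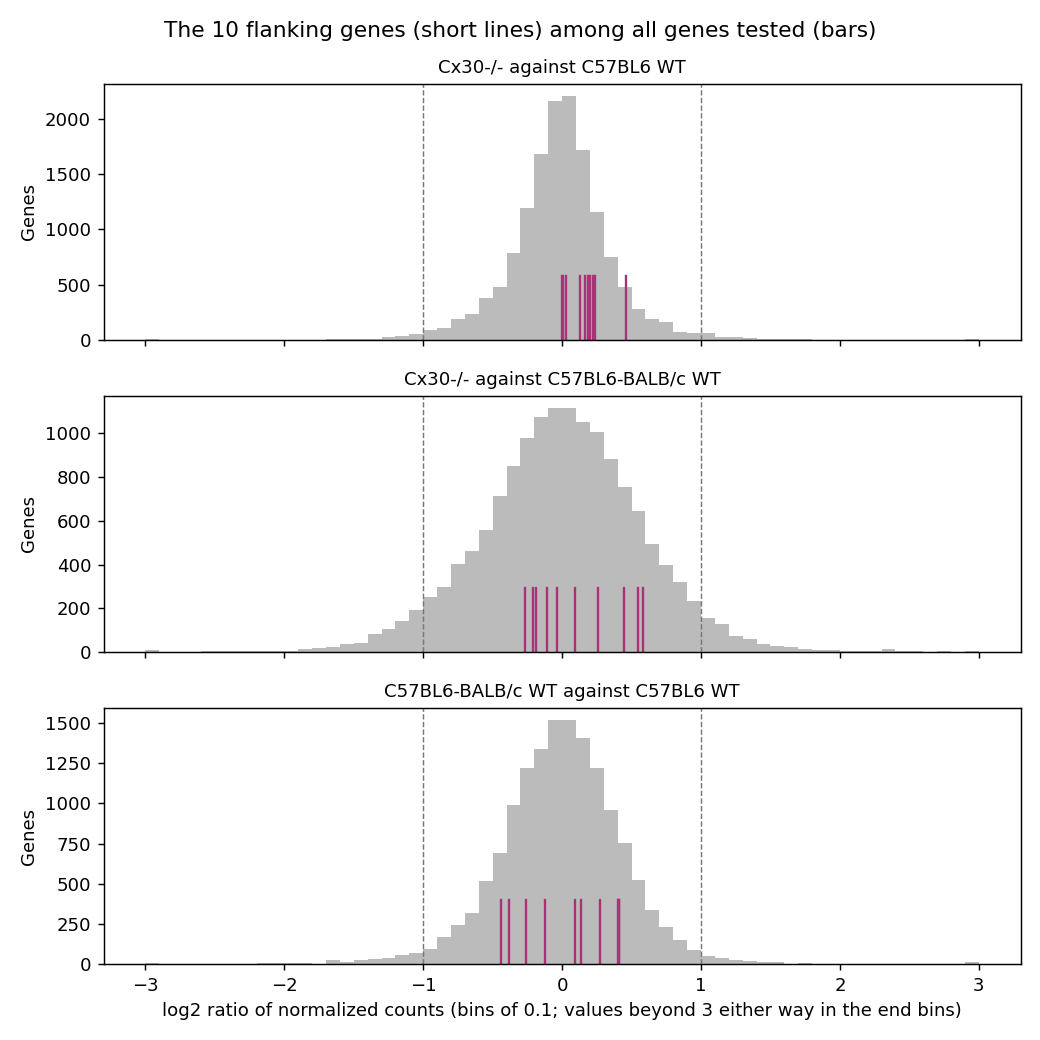
Distribution of log2 ratios of normalized counts over all genes tested (bars, genes per bin of 0.1) with the 10 flanking genes as short lines, in each of the 3 comparisons. Dashed lines mark 2-fold, genes at 0 in 1 library are not drawn, and all 10 lines lie between -0.44 and 0.58.

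Grouped by the labelled genotype, which leaves a measure of spread, the WT libraries were joined and set against Cx30-/- in the edgeR quasi-likelihood test. It called 0 of the 10 genes and 9 of 17576 genes in all (0.0512%), and 0 of the 10 had an unadjusted p under 0.05. Lats2 came first among them, with a log2 ratio of 0.52 and an edgeR adjusted p of 0.679, and the adjusted p of the other 9 ranged up to 0.997. DESeq2 also called 0 and gave 0 an unadjusted p under 0.05. The spread in this test is the difference between WT libraries that also differ in background, with a common coefficient of variation of 0.2103, and a p above the threshold does not show that expression was equal.

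Against C57BL6 WT, the genes nearest to Gjb6 did not show the largest difference, while against C57BL6-BALB/c WT the nearest, Cryl1, had the next largest after Lats2, with an interval (0.22 to 0.87) that held the value of Lats2. Cryl1, at 141 kb, had log2 ratios of 0.17 and 0.55, and Zmym2, at 161 kb, had 0.13 and -0.27, whereas Lats2, at 556 kb, had 0.46 and 0.58. On the lower side the median log2 ratio of the 4 genes was 0.16 against C57BL6 WT and -0.07 against C57BL6-BALB/c WT, and on the higher side that of the 6 genes was 0.18 and 0.35. The sides also differed between the WT libraries. All 4 genes of the lower side were higher in C57BL6-BALB/c WT than in C57BL6 WT (median log2 ratio 0.20), and 2 of the 6 of the higher side were (Ift88 and Xpo4; median -0.19). For Zmym5, the sign of this WT difference turned when libraries were scaled by their total count (0.10 to -0.03). These medians rest on 4 and 6 genes, and the difference between sides was not tested. Genotype and background cannot be told apart around the deleted gene.

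**Figure D3:**
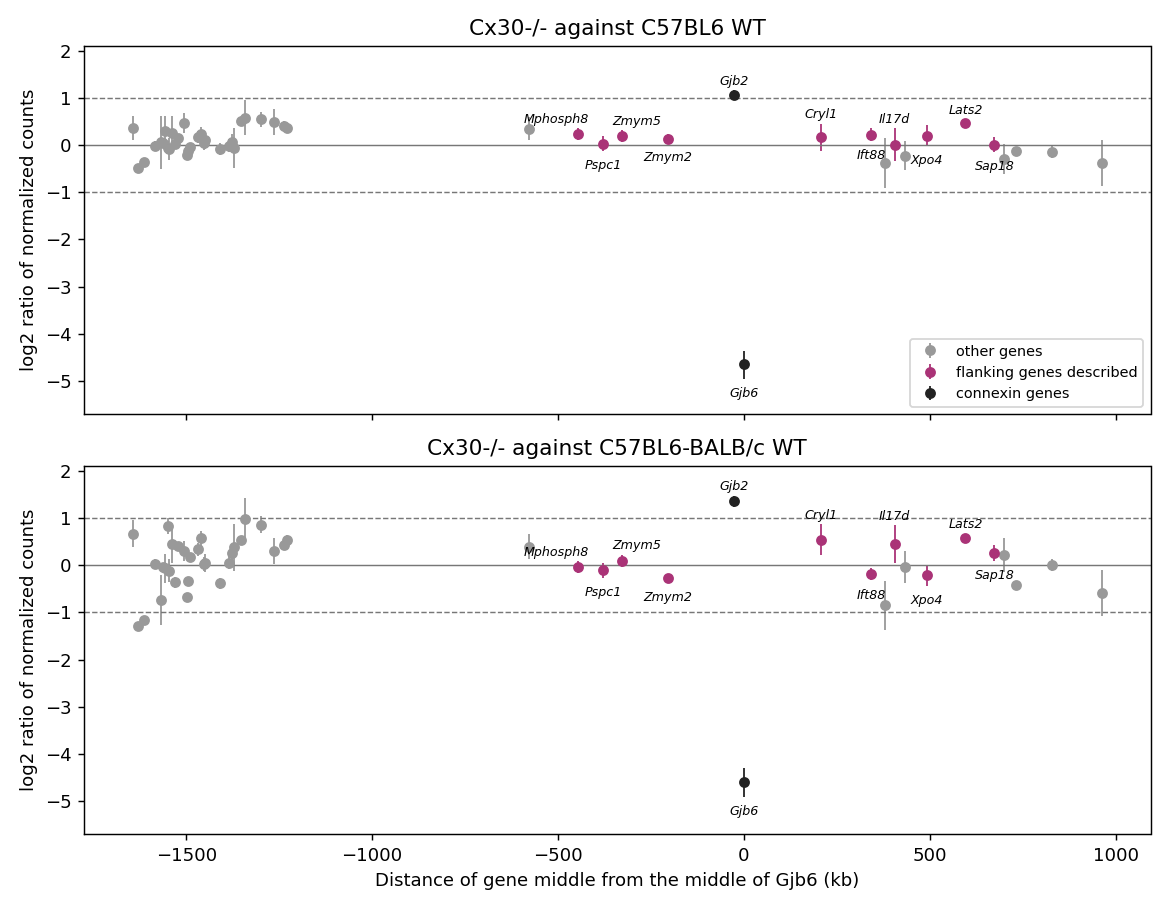
Log2 ratio of normalized counts with its 95% counting interval (y axis) against distance from Gjb6 in kb (x axis), for the 10 flanking genes, the connexins and the 37 other genes within 2 Mb that passed the count minimum. The flanking genes stay inside the dashed 2-fold lines on both sides, while Gjb6 lies at -4.65 and -4.59 and Gjb2 at 1.06 and 1.36.

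Within 2 Mb on either side of Gjb6, 73 further genes apart from the connexins were listed, of which 37 passed the count minimum. Their median log2 ratio was 0.04 against C57BL6 WT and 0.06 against C57BL6-BALB/c WT. None was 2-fold different from C57BL6 WT. Against C57BL6-BALB/c WT, Carmil3 (-1.29) and Cpne6 (-1.15) were, both over 1.5 Mb from Gjb6 and named here after their values were seen. The 10 flanking genes thus lay within the range of the other genes of the window, which ran from -0.48 to 0.58 and from -1.29 to 0.98. Like Lats2, some of these other genes lay above both WT libraries beyond counting error, Adcy4 and Nfatc4 among them. Some lay below both, Ipo4 and Zdhhc20 among them.

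The 10 genes have 25 transcript rows in all, and 5 genes (Cryl1, Il17d, Xpo4, Zmym2 and Pspc1) have a single row. Since reads on shared exons were counted for each transcript, the rows of a gene are not independent. Against C57BL6 WT, row log2 ratios ran from -0.34 to 0.48 and 0 of the 25 were 2-fold different. Against C57BL6-BALB/c WT 1 row was, a retained intron form of Sap18 (ENSMUST00000131455) with 20, 29 and 14 reads in C57BL6 WT, C57BL6-BALB/c WT and Cx30-/-. Its log2 ratio was -1.09, with an interval of -2.13 to -0.13, and it was named after its value was seen. A low-count Ift88 form annotated as nonsense-mediated decay gave -0.87 (-1.61 to -0.16) in this comparison. Within each comparison of Cx30-/- with a WT library, the 3 Lats2 rows had the same sign. So did the rows of Ift88, Mphosph8 and Zmym5, whereas those of Sap18 differed in sign. Between the WT libraries (C57BL6-BALB/c over C57BL6) the Lats2 rows differed in sign, at -0.12 for the row used and 0.03 and 0.05 for the others.

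**Figure D4:**
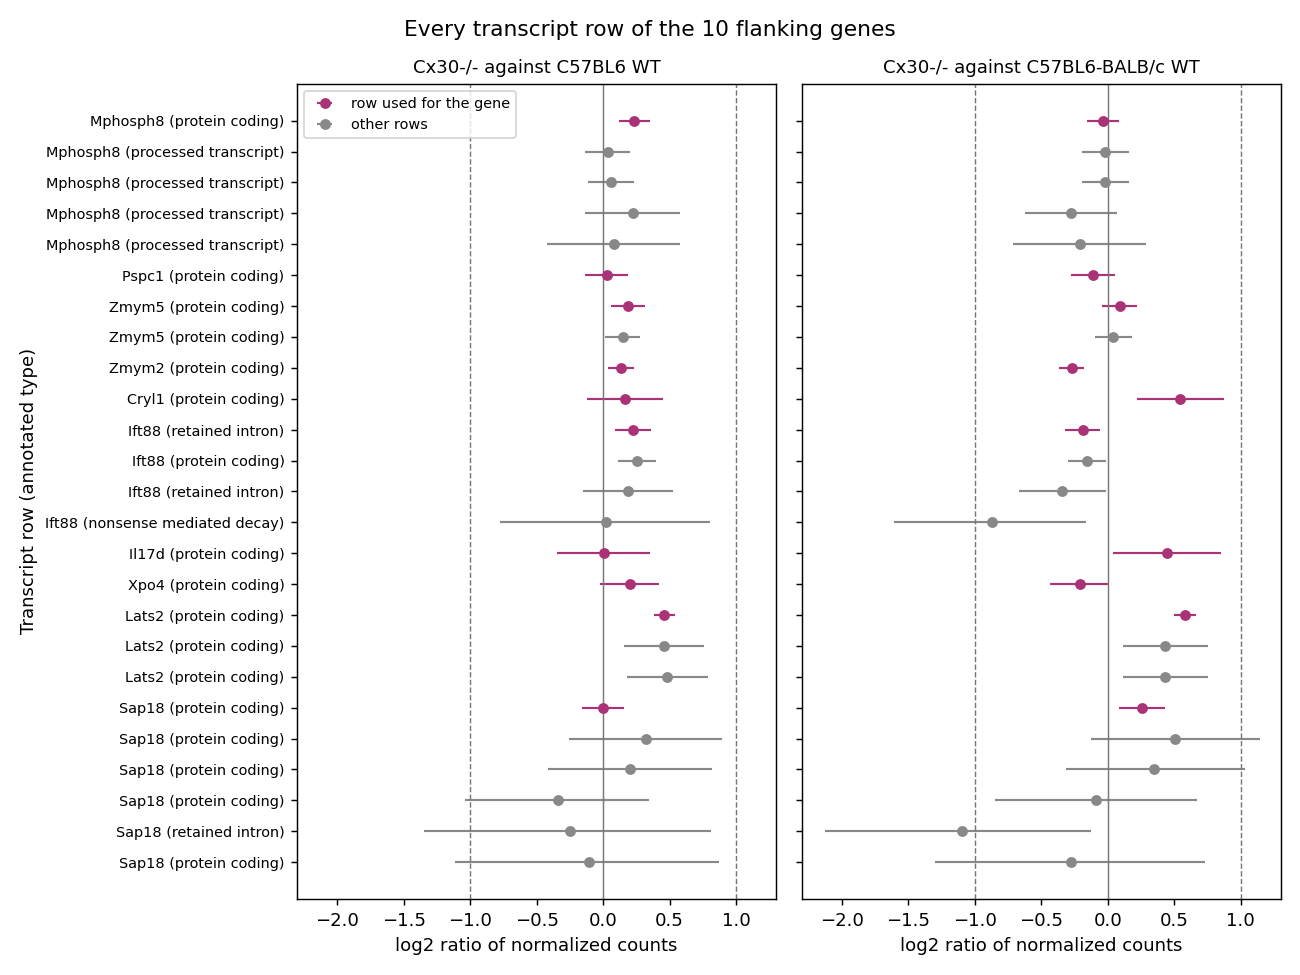
Log2 ratio of normalized counts with its 95% counting interval (x axis) for each of the 25 transcript rows of the 10 flanking genes, with the row used for the gene in colour. The 3 Lats2 rows lie to the right of 0 in both panels, and a retained intron row of Sap18 at -1.09 is the single row past a dashed 2-fold line.

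Partner genes of the 10 were examined by 9 lists of 92 genes, of which 88 were found and 80 passed the count minimum. None of the 80 was 2-fold higher, or 2-fold lower, in Cx30-/- than in both WT libraries. In the Hippo pathway list of Lats2, 21 of 22 genes passed. Of these, 16 were higher in Cx30-/- than in both WT libraries (37.1% of all genes) and 1 was lower than in both (36.6% of all genes). The median log2 ratios were 0.22 and 0.48 (all genes -0.0046 and 0.0040). Endothelial markers, at 8 of 8 and medians of 0.20 and 0.83, moved in the same direction, and their part in the values of this list was not tested. Against C57BL6 WT 0 of the 21 reached 2-fold (2.68% of all genes), and against C57BL6-BALB/c WT 3 did (8.69% of all genes): Ajuba (1.03) and Amotl2 (1.05), which bind LATS kinases or YAP, and Ccn1 (1.18), a target of YAP. Ccn2, another target of YAP, had log2 ratios of 0.08 and -0.07. Yap1 gave 0.29 and 0.56, Wwtr1, which encodes TAZ, 0.33 and 0.74, and Lats1, the paralog of Lats2, 0.21 and -0.24. Thus both co-activators were counted more often in Cx30-/- than in either WT library, and Lats1 lay between the WT libraries.

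For the intraflagellar transport complex B, all 14 genes found passed, 0 reached 2-fold in any comparison, and the medians were 0.18 against C57BL6 WT and 0.06 against C57BL6-BALB/c WT, beside 0.22 and -0.19 for Ift88 itself. Ependymal and choroid plexus markers had medians of 0.05 and 0.64, and their part in the values of this list was not tested. The interleukin-17 list had 6 of 11 genes past the minimum, 0 at 2-fold, with medians of 0.06 and 0.45. Its Cd93, reported as a receptor of Il17d and expressed by endothelium, gave 0.19 and 0.78. All 8 nuclear transport receptors related to Xpo4 passed and 7 were lower in Cx30-/- than in both WT libraries (36.6% of all genes), by little (medians -0.11 and -0.23), with Xpo1 at -0.24 and -0.33. Xpo4 itself was at 0.20 and -0.21.

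The lists of nuclear partners had medians near 0 against C57BL6 WT and below 0 against C57BL6-BALB/c WT. The paraspeckle genes (5 past the minimum) had medians of 0.01 and -0.54, the HUSH complex and its partners (5) 0.07 and -0.47, the MYM zinc finger and LSD1-CoREST list (8) -0.04 and -0.15, and the splicing and SIN3 list of Sap18 (6) -0.02 and -0.14. A single gene of these reached 2-fold in any comparison: the deacetylase gene Hdac1, with 226, 58.3 and 106 normalized counts in C57BL6 WT, C57BL6-BALB/c WT and Cx30-/-, was -1.09 against C57BL6 WT, 0.86 against C57BL6-BALB/c WT and -1.96 between the WT libraries, and so was highest in C57BL6 WT. The glucuronate list of Cryl1 (7 past the minimum) had medians of 0.01 and 0.26, and its Dcxr, the L-xylulose reductase gene, was 1.34 against C57BL6-BALB/c WT and 0.57 against C57BL6 WT. The 5 partner genes at 2-fold were named after their values were seen.

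**Figure D5:**
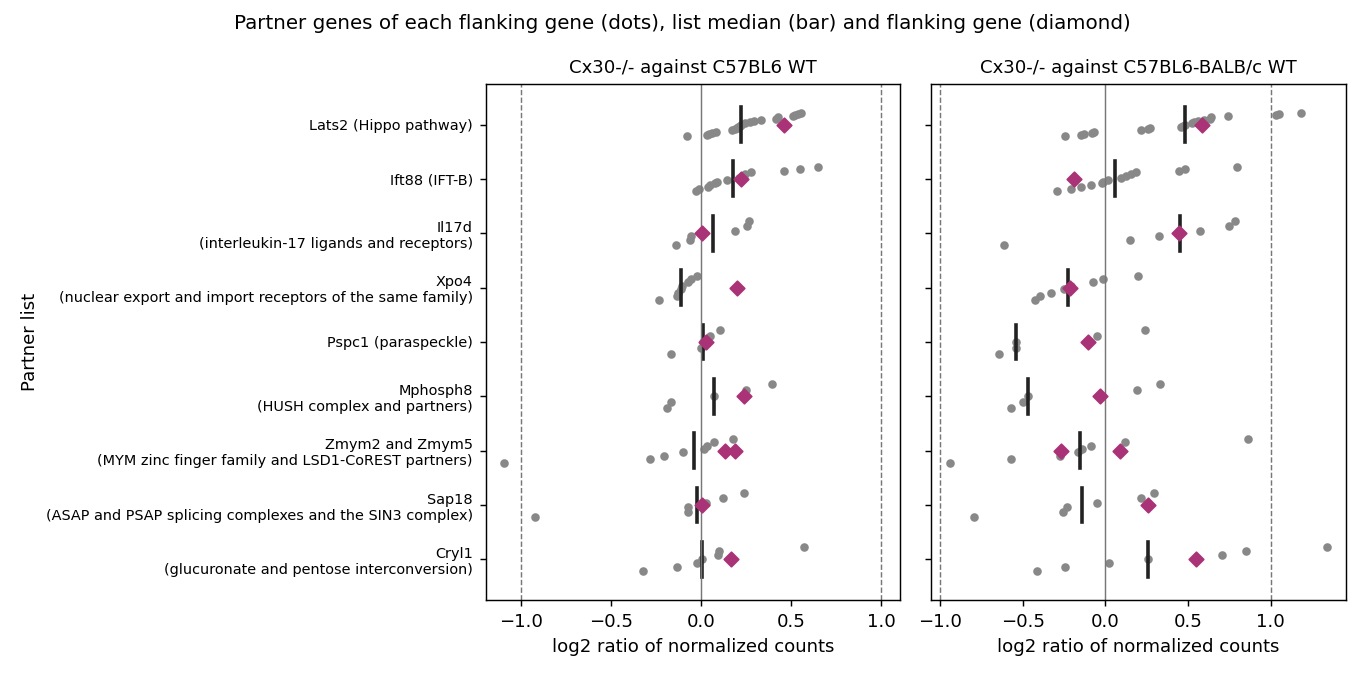
Log2 ratio of normalized counts (x axis) of the partner genes past the count minimum (dots), the median of each list (bar) and the flanking gene itself (diamond), for Cx30-/- against each WT library. The Hippo list has medians of 0.22 and 0.48 with Lats2 at 0.46 and 0.58, and against C57BL6 WT only Hdac1 lies past a dashed 2-fold line.

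Over the 3 libraries, Lats2 had the widest range of the 10. Genes with the nearest pattern, by the distance between log2 normalized counts centred on each gene, were Erich1 (chromosome 8; 103, 94.0 and 142 normalized counts in C57BL6 WT, C57BL6-BALB/c WT and Cx30-/-) and Fbxo30 (chromosome 10; 484, 443 and 669). Neither is on chromosome 14. Of the 13986 genes that had 50 or more normalized counts throughout, 219 lay within a distance of 0.1 of Lats2, so that 3 libraries leave many genes with this pattern.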

How the data were processed

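RNA from brain vessels was measured in 3 libraries, each a pool of 3 mice and the only library of its group, with groups taken from the labelled genotype and background. The authors trimmed the reads, aligned them with Bowtie to mm10 (base calls by CASAVA 1.8.2), dropped reads with several matches and deposited a raw count of the alignments over the exons of every transcript, 82813 Ensembl transcripts in all. Next to the counts, the files deposited by the authors hold the fraction that each count makes up of a library total (20654144 to 24830975), and the bases without a read. The libraries were not strand-specific, so reads from overlapping genes on opposite strands cannot be told apart. File positions extend beyond GRCm38, so coordinates come from GENCODE M21 through transcript identifiers, which named 69375 transcripts (83.8%).

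Each gene took its transcript row with the largest total count, scaled by median-of-ratios size factors (1.1452 for C57BL6 WT, 0.9258 for C57BL6-BALB/c WT, 0.9532 for Cx30-/-). Ratios have exact conditional binomial (Clopper-Pearson) 95% intervals (scipy 1.17.1), which cover counting error only. A ratio was called at 2-fold or more where either library had 50 normalized counts. The test across genes used edgeR 4.0.16 (R 4.3.3; filterByExpr, TMM, Benjamini-Hochberg), which was tested on simulated data, with DESeq2 1.42.0 as an alternative. The rule for named genes took the 10 flanking genes, the connexins of the locus, partner genes at 2-fold against both WT libraries and the 3 genes nearest in pattern to the widest-ranging flanking gene, of which 1 is not reported here. As 0 partner genes met that rule, the partner genes named were chosen after their values were seen. So were Carmil3, Cpne6, Adcy4, Nfatc4, Ipo4, Zdhhc20, Ift88os and Eef1akmt1. The members and lists were chosen with earlier results of these data known. Alternatives were other scalings, transcript rows, count minimums, a 1.5-fold threshold and a pseudocount of 1. Matches of 50-base reads to other genes were counted in GENCODE M21 transcripts, whose lengths differ from the files for some genes.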

Additional observations from a re-analysis of the deposited data

How the results depend on the processing

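The count of flanking genes past the threshold remained 0 in all 3 comparisons under every single alternative: TMM, total count, upper quartile and 2-library size factors, summed or longest transcript rows, no count minimum or a minimum in both libraries, a 1.5-fold threshold and a pseudocount of 1. The 0 at 1.5-fold rested on the scaling, as Lats2 (0.58 against C57BL6-BALB/c WT) lay just under that threshold. After seeing the data, 1.5-fold was combined with another choice. In that comparison it gave 1 gene, Lats2, with TMM (0.59), upper quartile (0.60), 2-library size factors (0.60) or the longest row (0.59). With total count it gave 2, Lats2 and Cryl1, and in the other comparisons it gave 0. The longest-row setting moved Lats2 only through the size factors, which were recomputed from the longest row of every gene. By edgeR without its filter, without TMM or on summed rows, and by DESeq2, 0 were called, with 0 at an unadjusted p under 0.05. The lowest adjusted p was 0.742, 0.584 and 0.623 for these edgeR fits and 0.918 for DESeq2, which gave 5 of the 10 an adjusted p, beside 0.679 for edgeR as reported. Of 210 recomputed log2 ratios, 204 stayed inside the counting interval of the reported value. The 6 others came from scaling by total count, which put Lats2 at 0.71, Zmym2 at -0.14 and Mphosph8 at 0.09 against C57BL6-BALB/c WT, and at -0.25, 0.28 and 0.15 between the WT libraries. The sign turned in 6 cases, for values of at most 0.11 in size. No replicate could be left out, since each group has 1 library, and dropping either WT library leaves edgeR no spread. No paired analysis was possible because no group has replicates. Il17d and Cryl1, with 90 to 214 reads per library, are limited by depth.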
